A study of Mus musculus with 12 samples.

Results

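Lactate and pyruvate handling was followed through 10 genes, which were taken by name from the 34866 genes of the deposited expression table. The members were chosen by their role, with earlier results of these data known, among them the differences of Ldhb, Pdk1 and Mpc1. The one measured value in the rule, the mean TPM that decides between identifiers of 1 symbol, played no part because each symbol matched 1 identifier. The members are the lactate dehydrogenase genes Ldha and Ldhb, the pyruvate dehydrogenase kinase genes Pdk1, Pdk2, Pdk3 and Pdk4, the mitochondrial pyruvate carrier genes Mpc1 and Mpc2, and the monocarboxylate transporter genes Slc16a1 and Slc16a3. All 10 had a mean above the minimum of 1 TPM that was set for testing (TPM is a transcript level scaled to transcript length and to the library total). Polyadenylated RNA was sequenced from immortalized mouse embryonic fibroblasts (MEFs) in 12 libraries, with 3 libraries each labelled male wild-type (WT), male Sirtuin 3 knockout (KO), female WT and female KO. The study asked whether loss of Sirtuin 3, a mitochondrial deacetylase, acts differently in cells of each sex.

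The MEFs came from single embryos aged 13 days, of 129S1/SvImJ WT mice and of a Sirt-3 KO stock, and all 4 groups were immortalized with a plasmid that carries the SV40 T antigen. All groups were untreated cells at passage 6, harvested 48 h after seeding in 6-well plates, with 3 wells per group. The sources used here do not give the number of embryos or lines behind each group, so genotype, sex and cell line cannot be told apart, and p-values measure only the spread between the 3 libraries, which may be technical. In these bulk samples fewer cells of a type and less RNA per cell cannot be told apart.

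Sirt3 itself was not lower in the labelled KO libraries. Its level was 6.59, 7.17 and 9.07 TPM in the libraries labelled male WT and 8.88, 10.9 and 11.0 TPM in those labelled male KO. It was 7.40, 7.60 and 8.69 TPM in the libraries labelled female WT and 7.57, 9.06 and 8.19 TPM in those labelled female KO. The gene total does not show which exons the reads came from, so the groups are named below by their labels. The study shows an immunoblot that includes Sirt3 protein, which was not examined here. All 8 fibroblast markers were expressed in every group, with summed levels of 9080 to 10195 TPM in labelled male WT, 11416 to 12115 in male KO, 7929 to 8115 in female WT and 9694 to 10028 in female KO. The 4 kidney epithelial markers used (Pax8, Pax2, Cdh16 and Emx2) summed to 51.1 to 58.4 TPM in the labelled male KO libraries, against 10.6 to 14.995 in male WT, 4.73 to 6.69 in female WT and 7.59 to 8.77 in female KO. All 4 of them reached 1 TPM in labelled male KO and 1 of 4 did so in each other group, and Pax2 was listed at 0 in all 9 of those other libraries. The 5 epithelial markers summed to 76.0 to 77.8 TPM in labelled male WT, 7.90 to 8.78 in male KO, 19.7 to 22.7 in female WT and 7.40 to 10.2 in female KO, with Cdh1 and Krt8 under 1 TPM in all 12 libraries. The 4 neural markers, of which Elavl3 and Sox10 were under 1 TPM in all libraries, summed to 76.3 to 78.0 TPM in labelled male WT, 52.6 to 64.3 in male KO, 96.2 to 105 in female WT and 59.1 to 69.7 in female KO. The 4 skeletal muscle markers, with Myod1 and Myog under 1 TPM, summed to 9.21 to 11.2, 5.10 to 5.47, 12.6 to 15.7 and 7.79 to 9.67 TPM in the same order. The 3 adipocyte markers, with Adipoq and Plin1 under 1 TPM, summed to 6.52 to 7.53, 0.829 to 1.61, 1.56 to 2.74 and 1.70 to 2.17 TPM. The 4 endothelial markers, with Pecam1, Cdh5 and Tek under 1 TPM, summed to 1.80 to 2.11, 1.40 to 1.63, 4.72 to 5.76 and 1.87 to 2.25 TPM, and the sums of the 4 white blood cell markers overlapped between KO and WT (3.98 to 10.02 TPM in all). The fibroblast, kidney, epithelial, neural, skeletal muscle and endothelial sums thus did not overlap between KO and WT in either comparison, and the adipocyte sums did not overlap in the male one. Within a list the genes did not all move alike. Pax8 was 0.045 to 0.578 TPM in labelled male WT and 32.0 to 37.8 in male KO. Of the kidney markers only Emx2 reached 1 TPM in the female libraries (3.81 to 6.12 in WT, 7.56 to 8.43 in KO). In the male libraries Tubb3 was higher in KO (12.1 to 13.9 against 9.89 to 10.5 TPM) where Map2 was lower (38.9 to 50.3 against 65.0 to 67.3). Des was 5.71 to 6.60 TPM in labelled female WT and 0 to 0.344 in female KO. The part of these lists in the results below was not tested.

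Pyruvate, the end product of glycolysis, is either reduced to lactate in the cytosol by lactate dehydrogenase or carried into the mitochondrion by the Mpc1 and Mpc2 complex. There the pyruvate dehydrogenase complex turns it into acetyl-CoA, and the 4 Pdk kinases switch that complex off by phosphorylation. Lactate leaves or enters the cell through monocarboxylate transporters: Slc16a1 encodes MCT1, which carries lactate in both directions, and Slc16a3 encodes MCT4, known for lactate export from glycolytic cells. Ldha, Pdk1 and Slc16a3 are textbook targets of hypoxia-inducible factors, which bind the core letters ACGTG or GCGTG. Only ACGTG was searched for here.

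The promoters of 5 members are shown, chosen with their levels known. Ldhb and Slc16a3, shown with Ldha and Slc16a1, made up more of their pair's level in labelled male KO than in labelled male WT. Pdk1 is the kinase gene with the highest fold change. Each line gives the 250 bases before the RefSeq transcript start (GRCm38.p6, strand of the gene, 5′ to 3′), with ACGTG on either strand in capitals. For Slc16a3 only the 236 bases outside an annotated exon are shown.
Ldha, chr7:46845554-46845803, plus strand: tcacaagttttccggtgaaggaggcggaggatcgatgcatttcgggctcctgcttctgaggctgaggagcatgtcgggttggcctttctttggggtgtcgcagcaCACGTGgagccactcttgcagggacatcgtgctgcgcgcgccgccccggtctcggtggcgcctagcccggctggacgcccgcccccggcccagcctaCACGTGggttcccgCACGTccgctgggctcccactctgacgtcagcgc
Ldhb, chr6:142507958-142508207, minus strand: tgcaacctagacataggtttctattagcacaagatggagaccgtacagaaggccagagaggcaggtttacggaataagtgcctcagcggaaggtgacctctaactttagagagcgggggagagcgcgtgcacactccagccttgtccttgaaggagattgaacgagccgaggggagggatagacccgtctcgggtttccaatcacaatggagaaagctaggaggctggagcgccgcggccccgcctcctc
Slc16a1, chr3:104638414-104638663, plus strand: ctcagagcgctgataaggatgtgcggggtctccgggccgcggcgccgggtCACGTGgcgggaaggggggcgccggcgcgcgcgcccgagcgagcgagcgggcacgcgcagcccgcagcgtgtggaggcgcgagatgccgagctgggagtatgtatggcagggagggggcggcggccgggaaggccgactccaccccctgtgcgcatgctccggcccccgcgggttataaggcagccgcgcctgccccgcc
Slc16a3, chr11:120948817-120949052, plus strand: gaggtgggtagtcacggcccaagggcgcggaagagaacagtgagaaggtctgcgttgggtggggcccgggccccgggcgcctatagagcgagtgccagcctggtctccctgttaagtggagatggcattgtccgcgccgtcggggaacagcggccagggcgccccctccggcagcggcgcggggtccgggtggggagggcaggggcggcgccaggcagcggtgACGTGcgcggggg
Pdk1, chr2:71872974-71873223, plus strand: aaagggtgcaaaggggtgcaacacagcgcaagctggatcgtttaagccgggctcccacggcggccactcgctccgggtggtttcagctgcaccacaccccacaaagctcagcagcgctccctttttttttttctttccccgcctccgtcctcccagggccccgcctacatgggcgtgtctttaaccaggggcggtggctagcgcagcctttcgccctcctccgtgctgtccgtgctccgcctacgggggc
Ldha held 3 separate stretches with ACGTG, which began 145, 48 and 34 bases before the start. Of these, 2 were the palindrome CACGTG, which holds ACGTG on both strands. Slc16a1 held 1 such palindrome, 200 bases before the start. Slc16a3 held 2 stretches, at 27 and 14 bases, the second of them in the exon part that is not shown. The windows of Ldhb and Pdk1 held no ACGTG. The windows of Ldhb, Pdk1 and Slc16a1 hold GCGTG on the printed strand. That form was not counted in any window, so no share over all windows can be set beside it. Over all 10 members, 14 RefSeq windows were found, and 5 of them held ACGTG (Ldha, Pdk2, Pdk3, Slc16a1 and Slc16a3), against 16.6% of 32851 promoter windows of the same length. TGATGNAA, the letters of a C/EBP-ATF response element, was in none of the 14 windows on either strand and in 3.45% of all windows. These are matches of letters only.

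**Figure D1:**
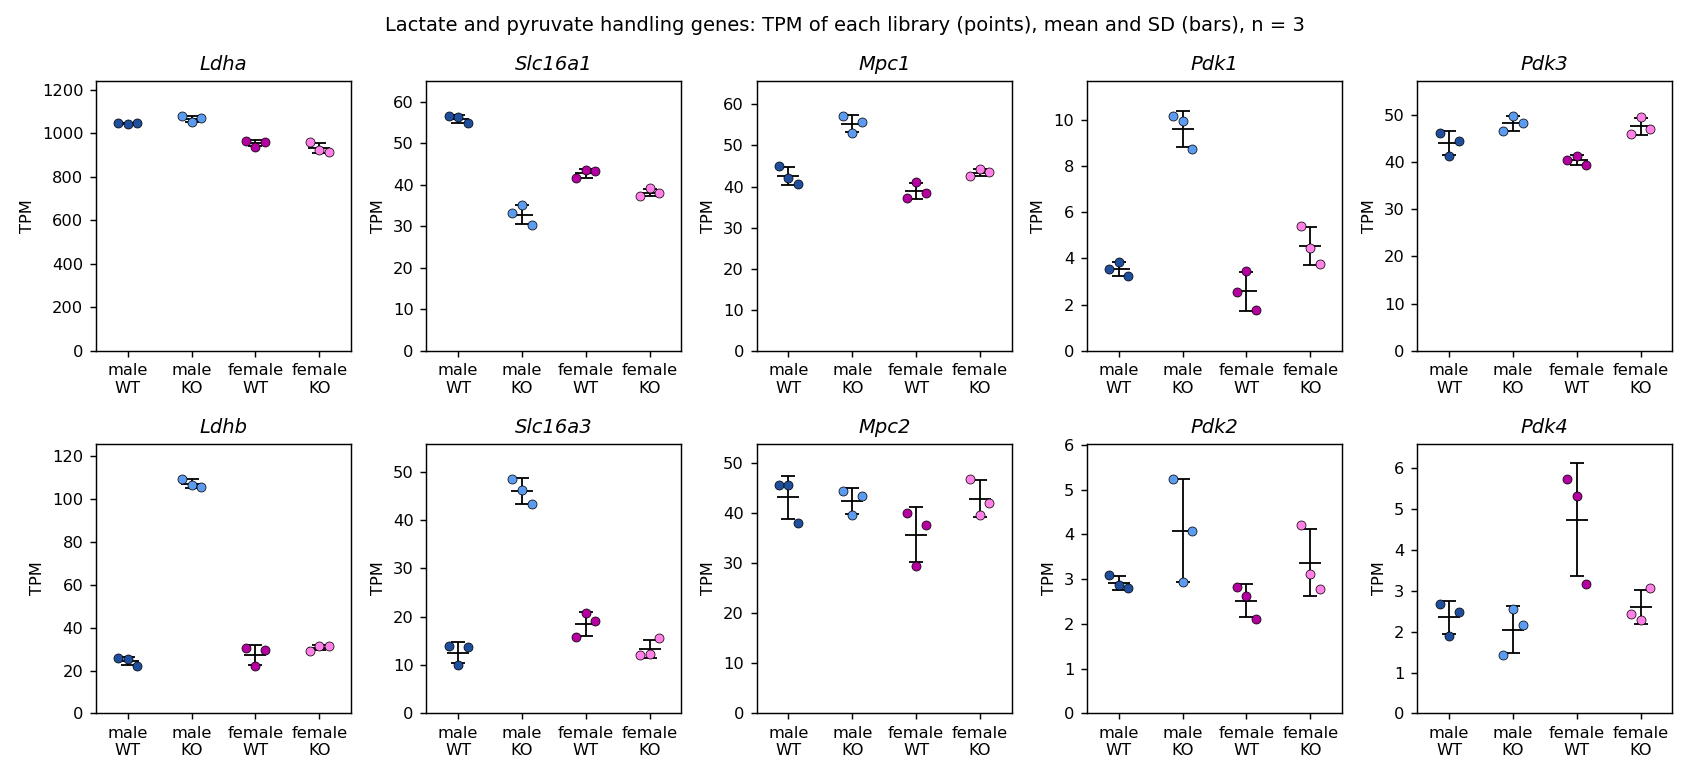
TPM (vertical axes, linear from 0, each gene on its own scale) of the 10 genes in the 4 labelled groups; each point is 1 library and the bars give the mean and SD (n = 3). Ldhb, Slc16a3 and Pdk1 stood highest in the labelled male KO libraries, Slc16a1 stood lowest there, and Ldha lay between 915 and 1078 TPM in all 12 libraries.

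In the male comparison 5 of the 10 genes passed the test: Ldhb, Pdk1, Mpc1 and Slc16a3 were higher in labelled KO and Slc16a1 was lower. Of all 12504 genes tested, 21.6% passed, 10.7% upward and 10.9% downward. The test was limma on log2(TPM + 1) with Benjamini-Hochberg adjustment over all 12504 genes and a threshold of 0.05, and fold changes and standard errors (SE) below are on that scale, which understates the change of low genes. Ldhb, Pdk1 and Mpc1 are counted here but are described without a p, because their difference was known when the genes were chosen. The median log2 fold change was 0.24 over the 10 genes and −0.015 over all genes tested. The count of 5 and this median include Ldhb, Pdk1 and Mpc1, so neither is a test of the 10 genes against all genes.

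Ldha (ENSMUSG00000063229.15, chromosome 7 of GRCm38 from 46841475 to 46855627), which encodes the muscle-type subunit that favours lactate formation, was by far the highest of the 10 in every library. Its level was 1046, 1044 and 1047 TPM in the libraries labelled male WT and 1078, 1050 and 1070 TPM in those labelled male KO. It was 964, 938 and 958 TPM in labelled female WT and 959, 924 and 915 TPM in labelled female KO. The male groups did not overlap and differed little, and the female groups overlapped. The log2 fold change was 0.028 in the male comparison (SE 0.025, limma adjusted p = 0.486) and −0.032 in the female comparison (SE 0.027, adjusted p = 0.491), with 95% intervals of −0.032 to 0.088 and −0.096 to 0.032.

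Ldhb (ENSMUSG00000030246.11, chromosome 6 from 142490249 to 142507957) encodes the heart-type subunit that favours pyruvate formation. It stood at 25.8, 25.3 and 22.2 TPM in the libraries labelled male WT and at 110, 107 and 106 TPM in those labelled male KO. It stood at 30.4, 22.0 and 29.8 TPM in labelled female WT and at 29.2, 31.4 and 31.7 TPM in labelled female KO. The 3 labelled male KO libraries were far above the other 9, which lay between 22.0 and 31.7 TPM. The ratio of the means was 4.39 in the male comparison (log2 fold change 2.09, SE 0.067) and 1.12 in the female comparison (log2 fold change 0.17, SE 0.12, and 0.029 without replicate 2 of labelled female WT).

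The 2 subunits assemble into mixed tetramers, so their relative level was computed in each library, as a share of length-scaled TPM. Ldhb made up 2.41%, 2.36% and 2.07% of the Ldha plus Ldhb level in labelled male WT and 9.22%, 9.22% and 8.98% in labelled male KO. It made up 3.06%, 2.30% and 3.01% in labelled female WT and 2.95%, 3.29% and 3.34% in labelled female KO. Ldha thus supplied over 90% of the summed level in every library, also where Ldhb was high. The summed level was 1070 ± 1.54 TPM in labelled male WT and 1173 ± 15.8 TPM in labelled male KO (SD, n = 3 each).

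Slc16a3 (ENSMUSG00000025161.16, chromosome 11 from 120948480 to 120960868) was 14.03, 10.01 and 13.73 TPM in the libraries labelled male WT and 48.5, 46.2 and 43.2 TPM in those labelled male KO. It was 15.9, 20.7 and 19.0 TPM in labelled female WT and 12.1, 12.3 and 15.6 TPM in labelled female KO. Neither pair of groups overlapped, by a narrow gap in the female libraries, and the order of KO and WT was opposite in the 2 pairs. The ratio of the means was 3.65 in the male comparison (log2 fold change 1.80, SE 0.13, limma adjusted p = 1.38e-04) and 0.718 in the female comparison, which did not pass (log2 fold change −0.45, SE 0.13, adjusted p = 0.0803). The difference between the 2 fold changes passed its own test (interaction 2.25 on the log2 scale, SE 0.20, limma adjusted p = 1.60e-05).

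Slc16a1 (ENSMUSG00000032902.1, chromosome 3 from 104638668 to 104658462) was 56.5, 56.2 and 54.8 TPM in the libraries labelled male WT and 33.1, 35.0 and 30.3 TPM in those labelled male KO. It was 41.5, 43.5 and 43.2 TPM in labelled female WT and 37.3, 39.1 and 37.9 TPM in labelled female KO. Levels were lower in labelled KO in both pairs of groups, without overlap. Slc16a1 had a log2 fold change of −0.75 in the male comparison (SE 0.064, limma adjusted p = 3.28e-04) and −0.16 in the female comparison, which did not pass (SE 0.046, adjusted p = 0.0720). The fall was larger in the male comparison (interaction −0.59, SE 0.076, adjusted p = 3.17e-04).

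In labelled male KO the 2 transporters changed places. Slc16a3 made up 19.9%, 15.1% and 20.0% of the Slc16a1 plus Slc16a3 level in labelled male WT and 59.5%, 56.9% and 58.8% in labelled male KO. It made up 27.7%, 32.3% and 30.6% in labelled female WT and 24.4%, 24.0% and 29.1% in labelled female KO. Only in labelled male KO was Slc16a3 the higher of the pair in all 3 libraries, and in the other 9 libraries it was the lower. A two-sided exact permutation test gave p = 0.1 for the male shares, the smallest p that 3 against 3 libraries can give, and p = 0.2 for the female shares. The summed level of the pair was 68.4 ± 2.13 TPM in labelled male WT, 78.8 ± 4.53 in male KO, 61.3 ± 3.53 in female WT and 51.4 ± 2.03 in female KO (SD, n = 3 each).

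**Figure D2:**
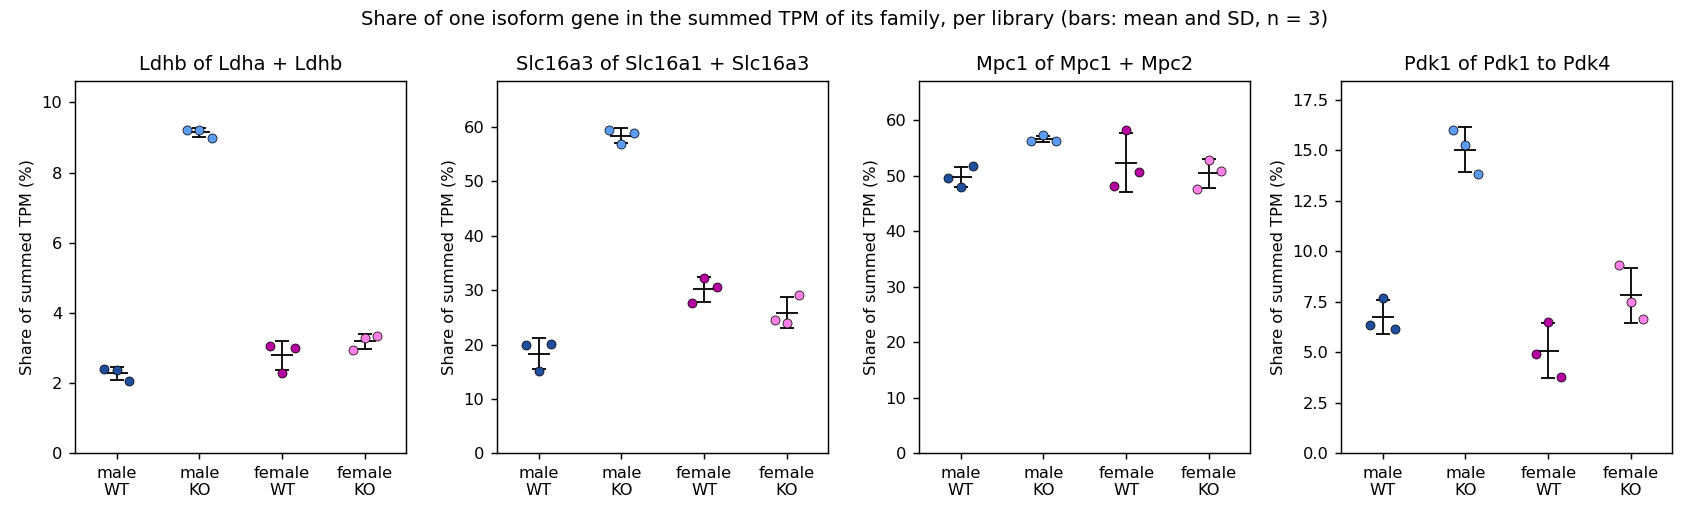
Share (%, vertical axes from 0) of 1 gene in the summed TPM of its family; each point is 1 library and the bars give the mean and SD (n = 3 per labelled group). The labelled male KO libraries stood apart for Ldhb (8.98% to 9.22%), Slc16a3 (56.9% to 59.5%) and Pdk1 (13.8% to 16.0%), and for Mpc1 (56.2% to 57.3%) they were matched by 1 labelled female WT library (58.3%).

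Mpc1 (ENSMUSG00000023861.17, chromosome 17 from 8282904 to 8297661) and Mpc2 (ENSMUSG00000026568.6, chromosome 1 from 165460637 to 165481214) encode the 2 subunits of the carrier, which needs both. Mpc1 was 44.9, 42.1 and 40.7 TPM in the libraries labelled male WT and 57.1, 53.0 and 55.8 TPM in those labelled male KO. It was 37.1, 41.1 and 38.5 TPM in labelled female WT and 42.4, 44.3 and 43.4 TPM in labelled female KO. Both labelled KO groups lay above their WT group without overlap. The log2 fold change was 0.37 in the male comparison (SE 0.059) and 0.15 in the female comparison (SE 0.053), a difference between the 2 of 0.22 (SE 0.077). Exons of Mpc1 share bases with a gene on the opposite strand, whose reads cannot be told apart where counting ignores strand, and the strand setting is not given in the sources used here.

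Mpc2 was 45.6, 45.7 and 38.0 TPM in labelled male WT and 44.4, 39.5 and 43.4 TPM in labelled male KO. It was 40.0, 29.4 and 37.7 TPM in labelled female WT and 46.8, 39.6 and 42.1 TPM in labelled female KO. Both pairs of groups overlapped. The log2 fold change was −0.018 in the male comparison (95% interval −0.23 to 0.19, limma adjusted p = 0.910) and 0.26 in the female comparison (−0.027 to 0.55, adjusted p = 0.223). Mpc1 thus made up 49.8% ± 1.86 of the pair's level in labelled male WT and 56.6% ± 0.603 in labelled male KO, a difference of 6.83 percentage points (SD, n = 3 each). In the female libraries the share was 52.3% ± 5.29 in labelled WT and 50.4% ± 2.64 in labelled KO.

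Among the kinase genes, Pdk3 was the most expressed in every library and Pdk1 had the highest upward fold changes. Pdk1 (ENSMUSG00000006494.11, chromosome 2 from 71873224 to 71903858) was 3.53, 3.85 and 3.26 TPM in the libraries labelled male WT and 10.2, 9.95 and 8.74 TPM in those labelled male KO. It was 2.55, 3.44 and 1.76 TPM in labelled female WT and 5.41, 4.46 and 3.77 TPM in labelled female KO. Neither pair overlapped, with labelled KO above WT in both. The log2 fold change was 1.22 in the male comparison (SE 0.11) and 0.65 in the female comparison (SE 0.21).

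Pdk3 (ENSMUSG00000035232.8, X chromosome from 93764607 to 93832201), the kinase known for weak inhibition by pyruvate, was 46.3, 41.4 and 44.5 TPM in labelled male WT and 46.6, 49.7 and 48.2 TPM in labelled male KO. It was 40.5, 41.4 and 39.3 TPM in labelled female WT and 46.0, 49.6 and 47.1 TPM in labelled female KO. Labelled KO was above WT in both pairs, by a narrow gap in the male libraries. Pdk3 was the only one of the 10 genes to pass in the female comparison, where 11.5% of all genes passed and 5.63% passed upward (log2 fold change 0.23, SE 0.049, limma adjusted p = 0.0295). That call did not hold when any 1 of the 6 female libraries was left out, with adjusted p from 0.0560 to 0.0966, nor without the mean-variance trend (0.0508). With median-of-ratios scaling 841 of the 1418 female calls over all genes were upward, against 704 of 1434 here. In the male comparison the fold change of Pdk3 was 0.13 (SE 0.060, adjusted p = 0.181), and the interaction was −0.10 (adjusted p = 0.451). The median log2 fold change in the female comparison was 0.16 over the 10 genes and −0.023 over all genes tested.

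Pdk2 (ENSMUSG00000038967.13, chromosome 11 from 95026258 to 95041354), the broadly expressed isoform, ranged from 2.11 to 5.24 TPM over the 12 libraries. Its groups overlapped in both comparisons, with log2 fold changes of 0.35 (SE 0.19, limma adjusted p = 0.234) in the male and 0.30 (SE 0.17, adjusted p = 0.310) in the female comparison. Pdk4 (ENSMUSG00000019577.6, chromosome 6 from 5483351 to 5496309), the isoform known for its rise in fasting, was 2.68, 1.89 and 2.48 TPM in labelled male WT and 1.43, 2.57 and 2.15 TPM in labelled male KO. It was 5.74, 5.33 and 3.16 TPM in labelled female WT and 2.44, 2.28 and 3.08 TPM in labelled female KO. Pdk4 was highest in labelled female WT and overlapped in the male groups. Its log2 fold change was −0.15 in the male comparison (SE 0.20, adjusted p = 0.653) and −0.65 in the female comparison, which did not pass (SE 0.21, adjusted p = 0.104). With 1 library left out it passed in 1 of 6 female fits. That fit was without replicate 3 of labelled female WT, the lowest of its group (−0.87, adjusted p = 0.0396). The values ran to −0.52 and the adjusted p to 0.246 in the other fits.

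Pdk3 supplied 83.3% ± 0.565 of the summed Pdk1 to Pdk4 level in labelled male WT and 75.4% ± 1.64 in labelled male KO (SD, n = 3 each). The share of Pdk1 was 6.35%, 7.69% and 6.15% in labelled male WT and 16.0%, 15.3% and 13.8% in labelled male KO. In labelled female WT it was 4.94%, 6.52% and 3.80%, and in labelled female KO 9.32%, 7.50% and 6.64%. The labelled KO libraries held more Pdk1 among the kinases than their WT in both pairs. The summed level of the 4 kinases was 52.8 ± 2.79 TPM in labelled male WT, 63.9 ± 1.08 in male KO, 50.3 ± 3.42 in female WT and 58.1 ± 1.35 in female KO (SD, n = 3 each). Both labelled KO sums, which include Pdk1, lay above their WT without overlap.

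**Figure D3:**
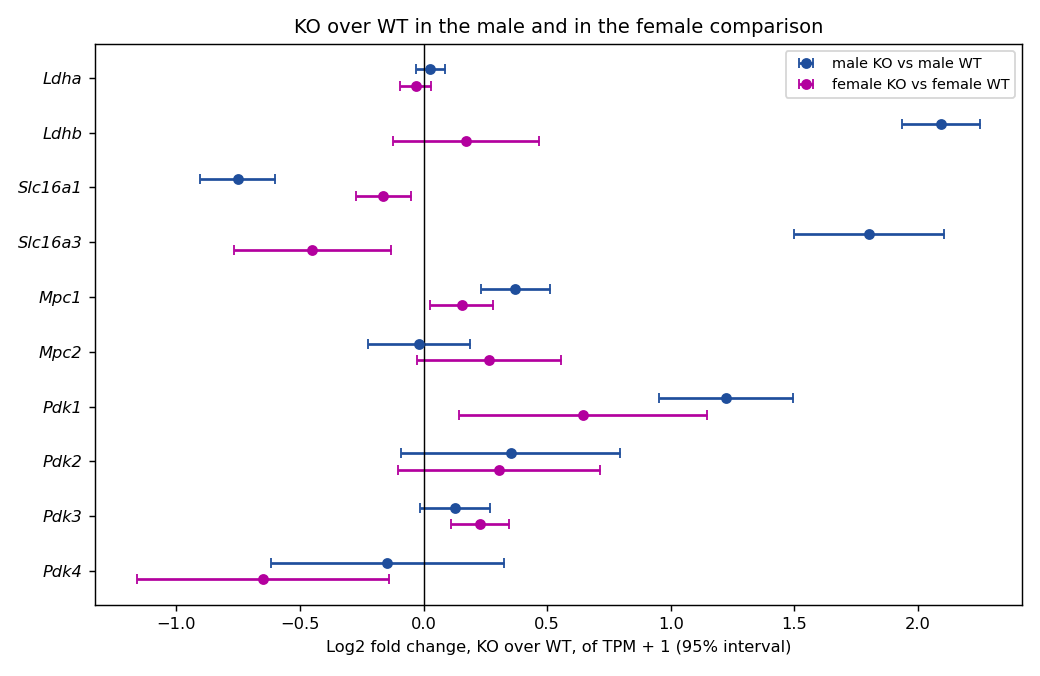
Log2 fold change of TPM + 1, labelled KO over labelled WT (horizontal axis), with its 95% interval for the male (blue) and female (magenta) comparison, 3 libraries against 3 in each. The male values of Ldhb (2.09), Slc16a3 (1.80) and Pdk1 (1.22) lie farthest right and that of Slc16a1 (−0.75) farthest left, and Slc16a3 lies on opposite sides of 0 in the 2 comparisons.

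The test of the difference between the male and the female fold change (interaction) was passed by 3 of the 10 genes, Ldhb and Slc16a3 with a positive and Slc16a1 with a negative difference. Of all genes 13.0% passed it, 6.70% with a positive and 6.33% with a negative difference. For Ldhb the difference was 1.92 on the log2 scale (SE 0.15), and for Pdk1 it was 0.58 (SE 0.24). Both genes were chosen with their difference between KO and WT known. Pdk1 came past the threshold without replicate 3 of labelled female WT, with a difference of 0.75. The counts of 5 members in the male comparison and of these 3 held with each library left out, apart from that added call.

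Between the labelled WT groups, 2 of the 10 genes passed the test, both higher in male cells, against 12.8% of all genes and 6.26% with male higher. Slc16a1 was higher by 0.38 on the log2 scale (SE 0.044, limma adjusted p = 0.00218). Ldha was higher by 0.13 (SE 0.024, adjusted p = 0.0134). The Ldha call was lost without replicate 3 of labelled male WT (adjusted p = 0.0525) or without replicate 3 of labelled female WT (adjusted p = 0.0550), and under quantile normalization its difference was 0.067 (adjusted p = 0.166). Without the mean-variance trend its adjusted p was 0.118. Slc16a3 and Pdk4 were lower in the labelled male than in the labelled female WT libraries without overlap, with log2 differences of −0.53 (adjusted p = 0.0667) and −0.75 (adjusted p = 0.0686) that did not pass. Pdk4 passed without replicate 3 of labelled female WT (difference −0.97, adjusted p = 0.0247) and in no other fit with 1 library left out (adjusted p up to 0.181).

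Between the labelled KO groups, 5 of the 10 genes passed, all higher in male cells, against 16.6% of all genes and 8.17% with male higher. Slc16a3 was higher by 1.72 on the log2 scale (SE 0.11, limma adjusted p = 8.20e-05) and Ldha by 0.19 (SE 0.028, adjusted p = 0.00445, and 0.0536 without the trend). Ldhb, Pdk1 and Mpc1 were the other 3, with differences of 1.77 (SE 0.050), 0.95 (SE 0.14) and 0.34 (SE 0.050). The count of 5 includes them, although their difference from WT was known when the genes were chosen. Slc16a1 was lower by a difference of −0.21 that did not pass (SE 0.067, adjusted p = 0.0777). The comparisons share libraries with those of KO against WT, so they are not separate evidence.

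The order of the levels changed with the group. In labelled male WT it ran from Ldha through Slc16a1 to Pdk3, Mpc2 and Mpc1, then Ldhb, Slc16a3, Pdk1, Pdk2 and Pdk4. Pdk3, Mpc2 and Mpc1 overlapped there from one to the next. In labelled male KO, Ldhb took the second place and Mpc1 the third, Pdk3, Slc16a3 and Mpc2 overlapped from one to the next, and Slc16a1 came behind them. In labelled female WT, Slc16a1 was again second, Pdk3, Mpc1, Mpc2 and Ldhb overlapped from one to the next, Slc16a3 followed, and Pdk4, Pdk1 and Pdk2 overlapped at the end. In labelled female KO the order below Ldha was Pdk3, Mpc1, Mpc2, Slc16a1, Ldhb and Slc16a3, and of these only Mpc1 and Mpc2 overlapped as neighbours in the order. Pdk1, Pdk2 and Pdk4 were under 11 TPM in every library.

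Of 23 neighbouring genes of pyruvate and lactate metabolism, 18 had a mean of at least 1 TPM and were tested. In the male comparison 3 were higher in labelled KO (Emb, Gpt2 and Pdha1) and 4 lower (Pdhb, Pdhx, Bsg and Pkm), 7 of 18 in all against 21.6% of all genes tested. In the female comparison 1 was higher (Pdha1) and 2 lower (Bsg and Emb), 3 of 18 against 11.5% of all genes. The differences of Pdha1 and Pkm were known when the list was made, and they are described without a p. Ldhc, Ldhd, Ldhal6b, Slc16a8 and Pklr were too low to test. The median log2 fold change over the 18 genes was 0.060 in the male and −0.056 in the female comparison.

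Emb encodes embigin, a membrane glycoprotein that partners monocarboxylate transporters. It was 9.80, 11.0 and 10.7 TPM in the libraries labelled male WT and 20.0, 21.5 and 21.0 TPM in those labelled male KO. It was 19.0, 18.5 and 18.0 TPM in labelled female WT and 12.5, 10.4 and 12.2 TPM in labelled female KO. The labelled KO libraries were thus higher than WT in the male pair and lower in the female pair, without overlap. Emb had a log2 fold change of 0.93 in the male comparison (SE 0.079, limma adjusted p = 3.28e-04) and −0.62 in the female comparison (SE 0.087, adjusted p = 0.00712), and the interaction was 1.55 (SE 0.11, adjusted p = 3.86e-06). Bsg encodes basigin, the partner that MCT1 and MCT4 need at the membrane, and was far more expressed, from 821 to 957 TPM over the 12 libraries. Bsg was lower by a log2 change of −0.13 in the male comparison (adjusted p = 0.0451) and −0.14 in the female (adjusted p = 0.0254). The male call was lost with each of the 6 male libraries left out (adjusted p from 0.0522 to 0.125), and the female call was lost with 5 of the 6 female libraries left out, all but replicate 1 of labelled female KO (highest adjusted p 0.0855).

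Gpt2, the mitochondrial enzyme that interconverts pyruvate and alanine, was 20.7, 22.5 and 19.1 TPM in labelled male WT and 37.7, 44.3 and 34.5 TPM in labelled male KO. It was 27.3, 29.0 and 27.2 TPM in labelled female WT and 24.5, 26.8 and 26.1 TPM in labelled female KO. For Gpt2 the log2 fold change was 0.87 in the male comparison (SE 0.11, limma adjusted p = 0.00173) and −0.11 in the female (adjusted p = 0.315), with an interaction of 0.97 (SE 0.13, adjusted p = 3.15e-04). Of the 5 genes of the pyruvate dehydrogenase complex, which the Pdk kinases act on, the E1 alpha subunit gene Pdha1 was slightly higher in labelled KO in the male comparison (log2 fold change 0.14) and in the female one (0.18). The E1 beta subunit gene Pdhb was lower in labelled male KO (−0.30, adjusted p = 0.00915) and so was Pdhx, which encodes the E3-binding protein (−0.31, adjusted p = 0.0362). Pkm, the pyruvate kinase gene that makes pyruvate, was lower in labelled male KO by a small change of −0.11. The male calls of Pdha1 and Pdhx were lost with each male library left out (adjusted p of Pdhx up to 0.103). The call of Pkm was lost with each male library left out but replicate 1 of labelled male WT, and the female call of Pdha1 with each female library left out but replicate 1 of labelled female WT. Under median-of-ratios scaling the male calls of Bsg (adjusted p = 0.195), Pdhx (adjusted p = 0.0515) and Pkm were lost too. The 3 genes of the pyruvate dehydrogenase phosphatase (Pdp1, Pdp2 and Pdpr), which undoes the kinases' work, had log2 fold changes from −0.17 to 0.16 in both comparisons and did not pass.

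**Figure D4:**
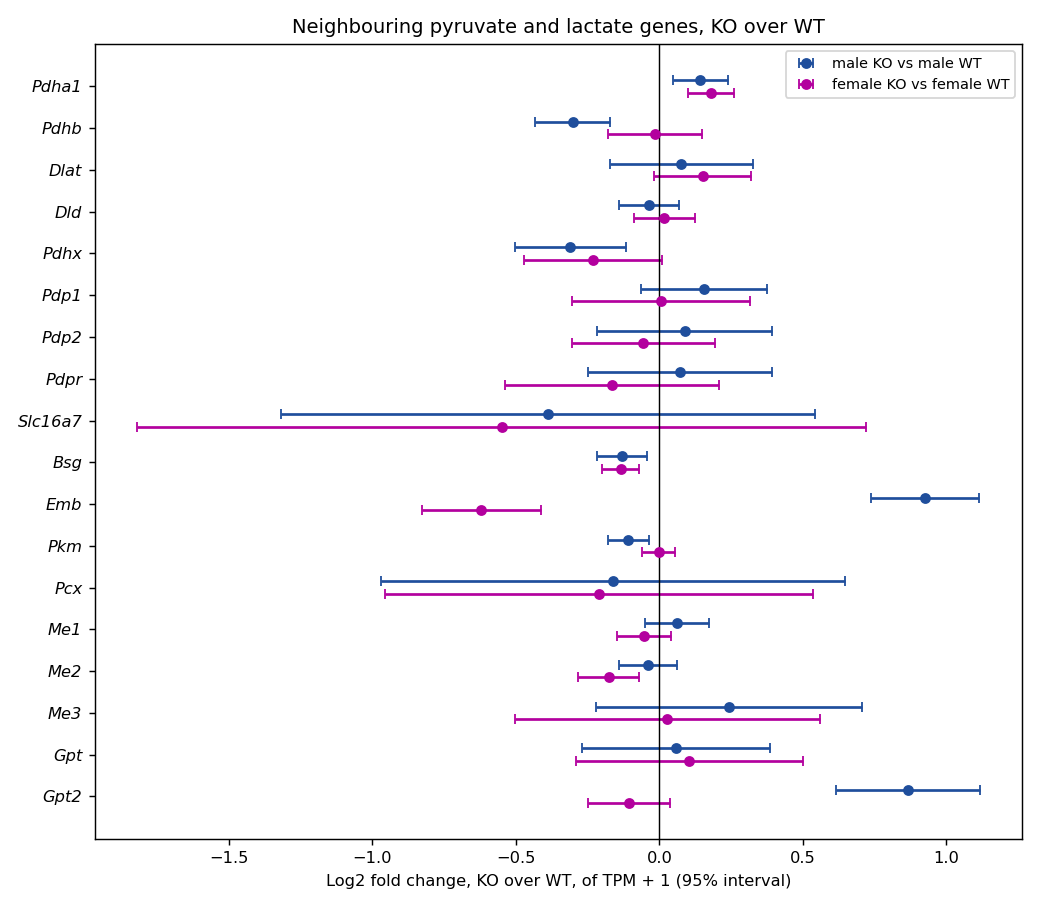
Log2 fold change of TPM + 1, labelled KO over labelled WT (horizontal axis), with its 95% interval for the 18 tested neighbouring genes in the male (blue) and female (magenta) comparison, 3 libraries against 3 in each. Emb lies at 0.93 in the male and −0.62 in the female comparison, Gpt2 at 0.87 and −0.11, and most other genes lie close to 0.

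The genes whose levels followed Ldhb most closely over the 12 libraries were Gxylt2 (Pearson r = 0.992), Scpep1 (0.991), Cdsn (0.988), Oat (0.983) and Galnt10 (0.983), computed on log2(TPM + 1). All 5 had their highest mean in labelled male KO, a pattern they were chosen for by following Ldhb. That mean ran from 12.3 TPM for Cdsn to 248 TPM for Scpep1, against 0.470 and 145 TPM in labelled male WT. The closest to Pdk1 were Emilin1 (0.966), Rab11fip5 (0.964), Them6 (0.962), Serpinh1 (0.962) and Ptpn13 (0.958). Emilin1 averaged 37.2 TPM in labelled male WT, 118 in male KO, 24.2 in female WT and 39.2 in female KO. Its higher mean in labelled KO in both pairs is likewise the pattern of Pdk1, for which it was chosen. Such correlations rest on 4 groups whose libraries share a source and are a description only. Among the members, Ldhb and Slc16a3 had r = 0.916, Pdk1 and Mpc1 had r = 0.938, and Ldhb and Slc16a1 had r = −0.770 over the same 12 libraries.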

How the data were processed

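RNA from 12 wells of MEFs, 3 per labelled group, was sequenced after polyA enrichment. The values deposited by the authors are TPM per gene, made with Salmon (version 1.10.1 in the submitters' processing notes) against GRCm38. TPM are not counts and keep no depth, so depth is unknown here and no counting interval is given. The study ran a count model on the TPM, and here a log-scale model was used instead. Identifiers were matched to symbols in the GENCODE M21 annotation of GRCm38 (34582 of 34866, 99.2%). Promoters came from the RefSeq table for GRCm38.p6.

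The 12504 genes that averaged 1 TPM or more across all libraries were tested on log2(TPM + 1) with limma 3.58.1 in R 4.3.3, with a mean-variance trend, within the 6 libraries of each pair of groups and over all 12 for the interaction, and p-values were adjusted by Benjamini-Hochberg over all genes tested. The code was tested on simulated data. Shares were compared by two-sided exact permutation tests (SciPy 1.17.1). All 10 members, and of the neighbouring genes those past the threshold in the male, female or interaction test, were named. For Ldhb and Pdk1 the 5 tested genes with the highest Pearson r were named. The members and lists were chosen with earlier results of these data known. Alternatives were a smaller pseudocount (0.1), quantile normalization, scaling by median of ratios, no low-value filter or one at 5 TPM, no trend, one joint fit of the 12 libraries, a block for the replicate number, and leaving out each library. The correlation of the deviations of libraries with the same number lay between −0.057 and 0.078, so the numbers were not taken as pairs. No 2 libraries held identical values. One marker gene of the kidney epithelial list is not reported here and was left out of its sum.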

Additional observations from a re-analysis of the deposited data

Results flagged for a closer look

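The difference between the male and the female log2 fold change of KO over WT, as labelled, passed its own test (limma interaction) for 3 of the 10 members and 2 of the 18 neighbouring genes tested, against 13.0% of all genes. Ldhb is among them although its difference was known when the genes were chosen. It was 1.92 for Ldhb, 2.25 for Slc16a3, −0.59 for Slc16a1, 1.55 for Emb and 0.97 for Gpt2. For Slc16a3 and Emb the fold changes pointed in opposite directions in the 2 comparisons, with 3 of 3 labelled KO libraries above all WT libraries in the male pair and 3 of 3 below them in the female pair. The female change of Slc16a3 did not pass (limma adjusted p = 0.0803), and its female groups were separated by a narrow gap. The kidney epithelial marker sum was higher in labelled male KO than in the other groups (51.1 to 58.4 TPM against 4.73 to 14.995), and its part in these differences was not tested.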

How the results depend on the processing

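Over 71 gene results and 1069 alternatives, 966 kept their direction and side of the threshold, 64 lost the call, 10 gained it and 29 turned in direction, and none of the 29 was a called result. The count of members passing in the male comparison (5) did not change under any alternative run. Over all genes the male calls went from 2707 to 1813 without replicate 3 of labelled male WT. They went to 3306 with all 12 libraries in one fit. Between the labelled KO groups the count of 5 went to 4 without the trend and to 6 with all 12 libraries in one fit, and the interaction count ran from 3 to 4 with 1 library left out. In the female comparison the count of 1 went to 0 without the trend and to 0 with the replicate block. It went to 2 with all 12 libraries in one fit and ran from 0 to 1 with 1 library left out. The 1 call with a library left out was Pdk4, lower without replicate 3 of labelled female WT, and not Pdk3. Where the count was 0, limma gave an unadjusted p under 0.05 to 6 members (no trend) and 7 (block). With 1 library left out, 4 or 5 members had such a p. The share of all genes at that cut was not computed, so these counts are not a result about the members. Between the labelled WT groups the count of 2 went to 1 under quantile normalization and without the trend and to 4 with all 12 libraries, and ran from 1 to 2 with 1 library left out. With the replicate block the calls of Pdk3 (female, adjusted p = 0.0745), Pdha1 and Bsg (both comparisons) and Pdhx (male) were lost, and no other member or neighbour call given above changed. Over all genes the block took the female calls from 1434 to 670, and leaving out 1 library took them to between 774 and 835. With no paired design behind the replicate numbers, the fall with the block is no measure of a weaker effect. That reason does not cover the fall with 1 library left out. Over all genes, the calls between the labelled KO groups went from 2070 to 1328 without replicate 3 of male KO, and those between the labelled WT groups from 1603 to as few as 1037, without replicate 3 of female WT. Without the trend, Ldha lost its call between the labelled KO groups (adjusted p = 0.0536).

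The results that turned in direction were small. Under median-of-ratios scaling the log2 value was 0.0017 for Mpc2 in the male comparison, 0.0032 for Mpc2 between the labelled KO groups, −0.0036 for the Bsg interaction, 0.012 for Pdhb and 0.026 for Pkm in the female comparison. Under quantile normalization it was −0.026 for the Pdk2 interaction and −0.0095 for the Bsg interaction. With 1 library left out the values ran from −0.11 to 0.22 (Pdk2 interaction), −0.0048 to 0.048 (Pdk3, labelled KO groups), −0.27 to 0.0090 (Pdk4, male), −0.10 to 0.032 (Mpc2, male), −0.064 to 0.054 (Mpc2, labelled KO groups), −0.019 to 0.031 (Bsg interaction), −0.089 to 0.025 (Pdhb, female), −0.14 to 0.0058 (Pdhx interaction) and −0.020 to 0.0097 (Pkm, female). The cause was not tested. With a minimum of 5 TPM, 8 of the 10 members were tested. The depth of the libraries is unknown, which limits what can be said of Pdk2 and Pdk4, at 1.43 to 5.74 TPM.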
